A study of Mus musculus with 16 samples.

Results

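The 8 wild-type libraries of a mouse dorsal root ganglion RNA-seq series were divided by the number in their source names into 4 libraries with numbers 1 to 5 and 4 libraries with numbers 6 to 9, out of 16 libraries in the whole series. The low-number set held WT saline 1 and 2 and WT CFA 1 and 2, and the high-number set held WT CFA 3 and 4 and WT saline 3 and 4, so each set held 2 libraries of each injection. The division was noticed in the expression values of these same libraries, so the difference between the sets in wild type is given as a description, without a p-value. What the number stands for, and whether it follows a date, a cohort, a cage, a dissection or a lane, is not given in the labels.

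All mice were C57BL/6, aged 10 to 12 weeks, and received vehicle (saline in the titles) or complete Freund's adjuvant (CFA, an inflammatory agent, titled MoAr for monoarthritis) in the ankle joint 14 days before the ganglia were taken. Each library pooled the 6 ipsilateral L4 to L6 ganglia of 2 mice, so that it averages over mice and over all cells of the ganglia. The other 8 libraries came from TrkA/C knock-in mice (KI; the construct is not described in the labels), with the same injections and 4 libraries per group. In KI the numbers 1 to 5 were KI saline 1, 2 and 3 and KI CFA 1, and the numbers 6 to 10 were KI CFA 2, KI saline 4 and KI CFA 3 and 4. The genotype tag of WT CFA 1 says knock-in whereas its title says WT, and it was kept with its title. Its Ntrk3 level, 48.3 CPM (read counts scaled by library size), lay within the 29.0 to 61.5 CPM of the wild-type titles and below the 98.8 to 138 CPM of KI. Libraries share a group by their labels only, so p-values measure the spread between these libraries.

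Dorsal root ganglia hold the cell bodies of sensory neurons, namely peptidergic and non-peptidergic nociceptors, low-threshold mechanoreceptors and proprioceptors. Satellite glial cells wrap those cell bodies, Schwann cells ensheath the axons, and macrophages, vessels and connective tissue fill the rest. Several gene programs in such tissue turn over within hours. The circadian clock runs as a feedback loop in which CLOCK or NPAS2 with ARNTL activates Per and Cry genes, REV-ERB receptors (Nr1d1, Nr1d2) repress Arntl, and DBP drives output genes. Immediate early genes and heat-shock genes respond to activity and stress within minutes to hours, and SR-protein kinases and splicing factors alter splicing of their own and other transcripts within a similar time. In bulk ganglia, fewer cells of a type and less RNA per cell cannot be told apart.

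The promoters of 6 genes are shown first because their transcripts lay apart between the 2 sets. Dbp, Per3, Per1 and Cry1 belong to the clock loop, Hspa1a to the heat-shock genes and Ppp1r10 to RNA processing. Of the genes looked up, only Hspa1a and Ppp1r10 were searched for the heat-shock element. Ppp1r10 is not in the heat-shock list, and a link of it to heat shock was not tested. Each is the RefSeq window of GRCm38.p6 from 250 bases before to 50 bases after the furthest upstream annotated start, in the gene's own direction. The windows are Dbp chr7:45704997-45705296 (+ strand), Per3 chr4:151044616-151044915 (- strand), Per1 chr11:69098699-69098998 (+ strand), Cry1 chr10:85185005-85185304 (- strand), Ppp1r10 chr17:35916946-35917245 (+ strand) and Hspa1a chr17:34972107-34972406 (- strand). All 9 genes looked up matched a window by symbol. Capitals mark matches, on either strand, to the E-box CACGTG, the D-box TTANGTAA or the REV-ERB/ROR element AGGTCA in the clock genes and to the heat-shock element GAANNTTC in the other genes.
Dbp: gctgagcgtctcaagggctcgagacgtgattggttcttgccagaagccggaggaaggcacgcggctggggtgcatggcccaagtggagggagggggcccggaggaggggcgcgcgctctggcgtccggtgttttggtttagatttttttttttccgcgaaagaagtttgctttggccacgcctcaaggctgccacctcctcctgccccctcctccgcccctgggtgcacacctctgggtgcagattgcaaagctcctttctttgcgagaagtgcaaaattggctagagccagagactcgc
Per3: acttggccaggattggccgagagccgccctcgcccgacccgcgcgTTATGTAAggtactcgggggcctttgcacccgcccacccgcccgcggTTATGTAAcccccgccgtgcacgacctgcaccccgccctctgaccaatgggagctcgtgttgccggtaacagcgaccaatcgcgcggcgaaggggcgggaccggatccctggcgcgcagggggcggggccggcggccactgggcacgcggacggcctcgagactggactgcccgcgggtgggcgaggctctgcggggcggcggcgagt
Per1: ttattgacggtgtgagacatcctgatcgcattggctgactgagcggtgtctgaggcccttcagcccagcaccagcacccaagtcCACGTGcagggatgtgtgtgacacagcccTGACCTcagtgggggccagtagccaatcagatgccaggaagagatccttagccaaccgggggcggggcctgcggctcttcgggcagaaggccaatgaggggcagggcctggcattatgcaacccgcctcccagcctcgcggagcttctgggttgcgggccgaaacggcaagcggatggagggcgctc
Cry1: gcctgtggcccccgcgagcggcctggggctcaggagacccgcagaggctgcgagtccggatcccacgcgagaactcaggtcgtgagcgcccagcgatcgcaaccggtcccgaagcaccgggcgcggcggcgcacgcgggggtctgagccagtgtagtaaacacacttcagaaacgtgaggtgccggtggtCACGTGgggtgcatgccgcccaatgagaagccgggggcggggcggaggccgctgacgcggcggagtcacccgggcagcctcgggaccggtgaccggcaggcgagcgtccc
Ppp1r10: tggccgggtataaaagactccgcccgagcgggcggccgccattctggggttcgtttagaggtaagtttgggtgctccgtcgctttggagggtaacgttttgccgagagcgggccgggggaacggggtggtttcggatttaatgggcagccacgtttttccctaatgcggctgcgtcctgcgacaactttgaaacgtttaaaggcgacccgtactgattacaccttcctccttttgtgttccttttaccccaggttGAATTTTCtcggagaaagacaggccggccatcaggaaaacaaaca
Hspa1a: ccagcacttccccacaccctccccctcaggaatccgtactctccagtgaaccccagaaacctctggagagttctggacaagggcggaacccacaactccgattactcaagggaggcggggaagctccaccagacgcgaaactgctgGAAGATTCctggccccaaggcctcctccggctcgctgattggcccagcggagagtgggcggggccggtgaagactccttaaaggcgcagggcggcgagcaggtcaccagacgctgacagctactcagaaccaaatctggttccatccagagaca
Per3 held 2 D-box matches, 205 and 158 bases before its start. Per1 held an E-box match 166 bases and a REV-ERB/ROR match 137 bases before its start, and Cry1 an E-box match 60 bases before. The Hspa1a window held a heat-shock match 104 bases before the start, and the Ppp1r10 window held one 5 bases after it. No match of these letters lay in the Dbp, Nr1d1 or Npas2 window, and the Nr1d2 window held a REV-ERB/ROR match 77 bases before the start. Of all 32851 RefSeq windows of 300 bases, 7.15% held the E-box, 2.32% the D-box, 16.3% the REV-ERB/ROR element and 7.86% the heat-shock element. A match describes letters and shows no binding.

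Libraries held 22742209 to 40910947 counts over 24982 entries, of which 4755 were at 0 in every library, and the 8 wild-type libraries expressed the markers of sensory neurons and ganglion glia throughout. The mean log2 CPM of 16 broad neuronal genes was 7.99 to 8.32 and that of 12 Schwann cell and myelin genes 6.58 to 7.24. Xist, expressed in female cells, stayed at or below 0.217 CPM, and the Y-linked Ddx3y lay between 35.04 and 43.2 CPM in wild type. Replicates of a group differed well beyond counting noise, with a chi-square per degree of freedom of 4.51 to 50.2 between libraries of 1 group. Skeletal muscle transcripts were high in 2 wild-type libraries, 1 in each set: Ckm, the muscle creatine kinase, was at 3.75 CPM in WT saline 1 and 10.7 CPM in WT saline 4.

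Across all expressed genes of the 8 wild-type libraries, the number set took 19.3% of the variance of log2 CPM, the injection 16.6%, their interaction 12.9% and the residual 51.1%. The number set, the injection and their interaction have 1 degree of freedom each and the residual has 4, so the residual share is not directly comparable. The share of a division noticed in these same values is a description. The first principal component, 28.5% of the variance, did not follow the sets: it placed WT CFA 3 at 40.7 and WT saline 4 at -33.8, both high-number libraries, and 0.48% of it lay between sets. The second component, 24.97% of the variance, had 58.2% of its variation between sets. On it the 4 low-number libraries stood together at 11.5 to 15.8. WT CFA 4 and WT saline 3 lay at 1.33 and 3.82, nearer to the low-number libraries than to the other high-number ones, WT CFA 3 at -28.0 and WT saline 4 at -32.2. On components 1 and 2 the high-number set was thus spread out and the low-number set compact, and WT CFA 3 and WT saline 4 stood apart from the rest. This did not hold on every component. The low-number set was the wider one on components 4, 5 and 7 (-19.5 to 18.6 against -1.94 to 5.55 on component 5). The high-number set was the wider one on components 3 and 6. Counts of genes and of list members are given below with and without WT CFA 3 and WT saline 4.

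**Figure D1:**
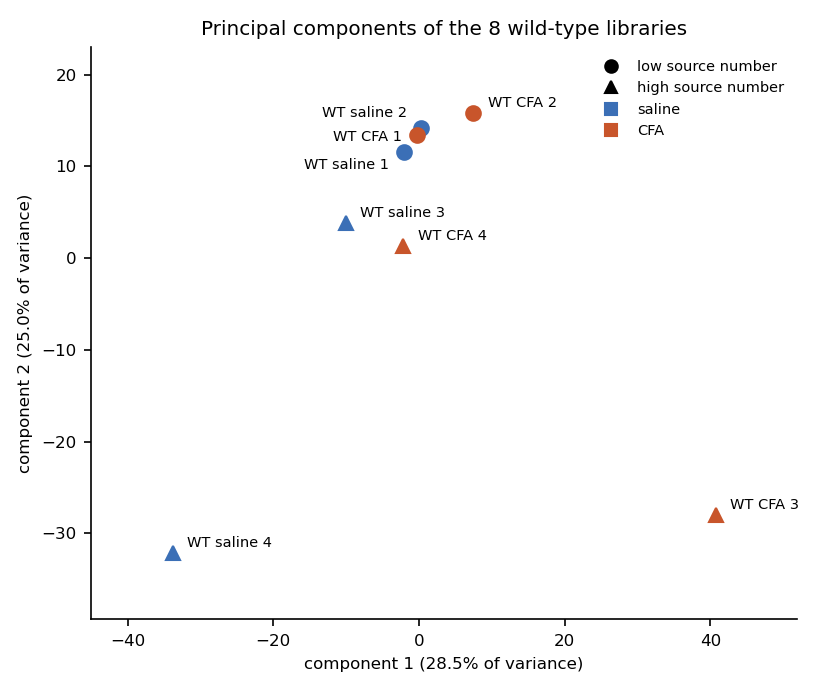
Principal components 1 and 2 of log2 CPM for the 8 wild-type libraries, with axes in component units, circles for low and triangles for high source numbers, and color for the injection. The 4 low-number libraries sit between 11.5 and 15.8 on component 2, whereas WT CFA 3 and WT saline 4 lie at -28.0 and -32.2.

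The division touched many genes by small amounts. Of 15237 genes tested for level, 2280 (15.0%) had 4 low-number and 4 high-number libraries that did not overlap, 1049 (6.88%) of them higher in the high-number set and 1231 (8.08%) higher in the low-number set. Their median absolute difference was 0.24 on the log2 scale, against 0.13 over all genes, and 56.6% of them differed by less than 1.2-fold. Only 121 genes (0.794%) both lay apart and differed by at least 1.5-fold after adjustment for injection, 59 (0.387%) higher in the high-number set and 62 (0.407%) higher in the low-number set. Of these, 33 differed at least 2-fold, 43 had a mean under 1 CPM, and 14 had a mean of at least 10 CPM. Genes with non-overlapping values were selected by the same contrast that these counts describe, so the counts are a description. Without WT saline 4 and WT CFA 3, 4686 of 15330 genes (30.6%) lay apart, in sets of 4 and 2 libraries, and 337 of them by at least 1.5-fold, 87 shared with the 121. At the boundary of the division, WT CFA 2 has number 5 and WT CFA 3 number 6. Ppp1r10 was at 56.1 CPM just inside and 25.8 CPM just outside, and Dbp at 7.84 and 12.6 CPM.

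Among genes averaging 1 CPM or more, the largest differences each way were spread over several kinds of gene. In the high-number set the 20 largest ranged from 0.72 to 2.40 on the log2 scale (high-number minus low-number, from a fit that adjusts for injection) and included Casp4, an inflammatory caspase (1.08 ± 0.32, ± SE), Foxs1, a forkhead factor of pericytes and neural crest derivatives (0.93 ± 0.29), Il17rb, a receptor of interleukin 25 (0.83 ± 0.27), and the cell-cycle genes Ube2t and Cks2 (0.87 ± 0.27 and 0.77 ± 0.24). Lrrc17, a secreted leucine-rich repeat protein gene, was at 22.4, 23.7, 18.5 and 20.6 CPM in the low-number libraries and 33.4, 25.5, 28.1 and 68.7 CPM in the high-number libraries, always in the order WT saline 1, WT saline 2, WT CFA 1, WT CFA 2 and then WT CFA 3, WT CFA 4, WT saline 3, WT saline 4. Its high-number levels were drawn out by WT saline 4. In the low-number set the 20 largest ranged from -0.74 to -1.43 and included Kcnj6, a G-protein-gated potassium channel (-1.03 ± 0.25), Cd248, a stromal and pericyte antigen (-0.87 ± 0.28), Itga5, the fibronectin receptor alpha subunit (-0.84 ± 0.22), Fermt3, an integrin activator of blood cells (-0.79 ± 0.30), and Sox3, an SRY-family factor (-0.83 ± 0.25). In KI, Tnc and Sox3 had differences of -0.74 and -0.84 and Kcnj6 and Cd248 of 0.079 and 0.35, none of them called. Of these 40 genes, those named further on are described with their gene groups.

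Several genes of RNA processing lay apart, in both directions. They are described here because Ppp1r10, Rsrp1, Pcf11 and Znhit3 were among the 10 tightest divided genes averaging 10 CPM or more. No list of RNA-processing genes was counted. Ppp1r10, which encodes PNUTS, a nuclear subunit that targets protein phosphatase 1 to RNA polymerase II, was at 52.4, 54.0, 53.2 and 56.1 CPM in the low-number libraries and 25.8, 28.2, 29.5 and 23.8 CPM in the high-number libraries. Its means were 53.9 ± 1.59 CPM and 26.8 ± 2.54 CPM (SD, n = 4 each), a difference of -1.004 ± 0.073 (SE). Every high-number library lay below every low-number library, and saline and CFA libraries mixed within each set. Rsrp1, an arginine- and serine-rich splicing-speckle gene, was at 98.1, 92.3, 87.8 and 86.0 CPM in the low-number libraries and 42.7, 52.5, 65.0 and 54.5 CPM in the high-number libraries, a difference of -0.77 ± 0.080. Pcf11, a factor of transcript cleavage and termination, was at 26.4, 23.04, 24.1 and 24.2 CPM in the low-number libraries and 16.1, 18.6, 17.0 and 13.2 CPM in the high-number libraries, a difference of -0.59 ± 0.10. Clk1, a kinase of SR splicing proteins, was at 35.1, 26.5, 31.7 and 23.7 CPM in the low-number libraries and 15.1, 18.8, 17.6 and 20.1 CPM in the high-number libraries. The closest values of Clk1, 23.7 CPM in the low-number and 20.1 CPM in the high-number set, were set apart by less than the spread within either set, and its difference was -0.70 ± 0.12. Clk4, a related kinase, was at 11.6 to 13.8 CPM in the low-number set and 7.34 to 9.33 CPM in the high-number set. Clk1 and Clk4 were both chosen after their values were seen. Rbm5, a splicing regulator of the spliceosomal A complex, was at 62.3, 67.3, 77.9 and 80.2 CPM in the low-number libraries and 55.2, 59.1, 55.6 and 56.1 CPM in the high-number libraries, lower in the high-number set by less than 1.5-fold (-0.34 ± 0.065). Srsf5, an SR splicing protein, went the other way at 118, 119, 119 and 105 CPM in the low-number libraries and 129, 134, 139.8 and 140.1 CPM in the high-number libraries (0.23 ± 0.053). Znhit3, a factor of small nucleolar RNA-protein assembly, was also higher in the high-number set (0.61 ± 0.11). It was at 8.34, 8.26, 9.52 and 7.60 CPM in the low-number libraries and 12.04, 11.6, 12.5 and 15.3 CPM in the high-number libraries. Rbm48, an RNA-binding motif gene chosen after its values were seen, was higher by 0.62 ± 0.12. Other RNA-binding genes looked up after values were seen overlapped between the sets: Luc7l at 54.2 to 60.8 CPM in the low-number set and 45.1 to 57.7 CPM in the high-number set, Ddx5 at 355 to 386 CPM in the low-number set and 355 to 392 CPM in the high-number set, Cirbp at 23.8 to 27.9 CPM in the low-number set and 24.7 to 33.6 CPM in the high-number set and Rbm3 at 107 to 126 CPM in the low-number set and 118 to 143 CPM in the high-number set.

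Of 16 circadian clock genes, 7 lay apart between the sets, 4 higher and 3 lower in the high-number set, beside 15.0% of all genes, and the median difference of the list was 0.048 against 0.0054 over all genes. Dbp, the clock output transcription factor, was at 7.38, 9.24, 7.21 and 7.84 CPM in the low-number libraries and 12.6, 13.5, 13.5 and 12.7 CPM in the high-number libraries. Its means were 7.92 ± 0.921 CPM and 13.1 ± 0.465 CPM (SD, n = 4 each), the difference was 0.73 ± 0.10, and the 2 sets were tight and well apart. Per3, whose protein is a weak member of the repressor arm, was at 6.32, 7.44, 7.24 and 5.74 CPM in the low-number libraries and 9.23, 10.5, 10.2 and 8.13 CPM in the high-number libraries (0.51 ± 0.12). Nr1d1, which encodes REV-ERB alpha, was at 19.9, 21.3, 18.6 and 18.3 CPM in the low-number libraries and 27.5, 22.5, 26.1 and 24.9 CPM in the high-number libraries (0.37 ± 0.079), and Nr1d2, which encodes REV-ERB beta, was higher by 0.27 ± 0.061. Dbp, Per3 and the REV-ERB genes thus shared 1 direction. The opposite direction held for Per1, a repressor gene that is also induced by glucocorticoids and neuronal activity, at 35.02, 42.3, 25.6 and 33.5 CPM in the low-number libraries and 22.1, 20.1, 22.9 and 16.1 CPM in the high-number libraries (-0.73 ± 0.14). Npas2, an activator of the loop, was at 4.95, 5.47, 6.32 and 5.63 CPM in the low-number libraries and 3.56, 4.75, 3.99 and 2.75 CPM in the high-number libraries (-0.57 ± 0.16), and the repressor Cry1 was lower by 0.22 ± 0.089. Arntl, the partner of CLOCK and NPAS2, overlapped between the sets at 4.27 to 5.72 CPM in the low-number set and 2.60 to 4.51 CPM in the high-number set. The genes that lay apart belong to both the activating and the repressing arm. Without WT saline 4 and WT CFA 3, 9 of the 16 lay apart, 4 higher and 5 lower, beside 30.6% of all genes.

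**Figure D2:**
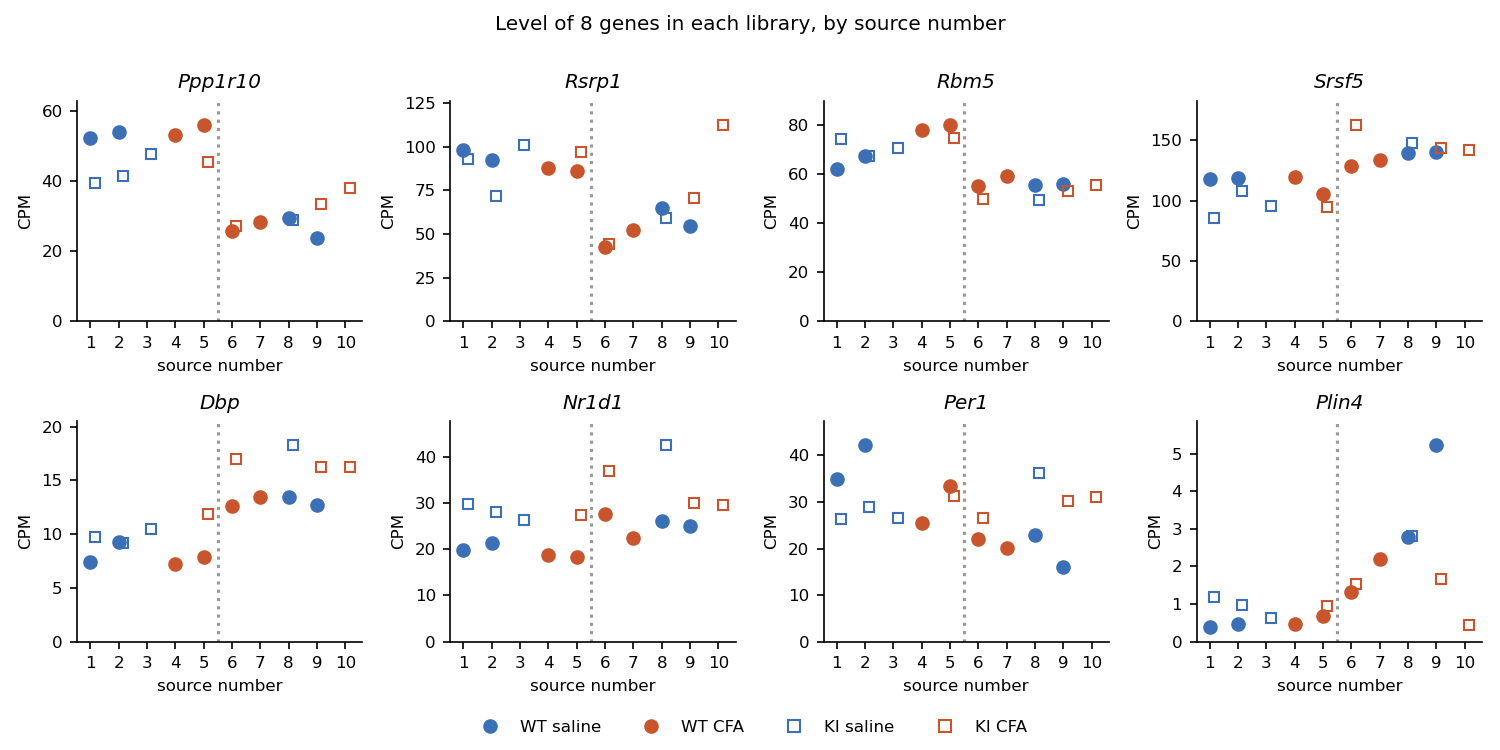
CPM of 8 genes in each library against its source number, with filled circles for wild type, open squares for KI, color for the injection and a dotted line at the number boundary. Ppp1r10 and Rsrp1 lie lower and Dbp higher in all 4 wild-type libraries right of the line, and 1 KI library right of it, KI CFA 4, has the highest Rsrp1 level (113 CPM).

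Of 16 heat-shock and protein-folding genes, 5 lay apart, 3 lower and 2 higher in the high-number set, where 15.0% of all genes lay apart. That share is to be set beside each count in this paragraph for which no other share is given. Hspa1a, an inducible cytosolic HSP70 gene, was at 7.21, 4.68, 5.71 and 10.2 CPM in the low-number libraries and 4.03, 3.57, 4.55 and 4.37 CPM in the high-number libraries (-0.74 ± 0.22), and the near-identical Hspa1b at 12.3, 9.08, 9.90 and 11.3 CPM in the low-number libraries and 6.09, 7.00, 8.88 and 8.32 CPM in the high-number libraries (-0.50 ± 0.13). Reads of these copies can be shared or lost in counting, so each level alone is uncertain. Their cochaperone gene Dnajb1 was lower by 0.29 ± 0.081. The genes higher in the high-number set, Dnajb9 (0.25 ± 0.060) and Xbp1 (0.16 ± 0.071), act in the unfolded-protein response of the endoplasmic reticulum instead. Of 15 immediate early genes, only Junb, an AP-1 subunit gene, lay apart (0.23 ± 0.067), with a list median of -0.31. In the high-number set 11 of the 15 were lower and 4 higher. The mean log2 CPM over the list was 3.16 to 3.44 in the low-number set and 2.89 to 3.12 in the high-number set, without overlap. Egr1, a zinc-finger factor induced by activity, was at 33.2, 21.5, 10.3 and 12.7 CPM in the low-number libraries and 8.94, 10.7, 8.67 and 9.11 CPM in the high-number libraries. It was high in WT saline 1 and 2 and lay between 8.67 and 12.7 CPM in the other 6 libraries. Egr3 was at 6.25 to 13.6 CPM in the low-number set and 2.77 to 6.59 CPM in the high-number set, overlapping. Of 12 MAPK feedback genes, Dusp4 (0.36 ± 0.14) and Spry2 (0.21 ± 0.079) were higher and Dusp6 (-0.27 ± 0.078) lower in the high-number set. Of 12 glucocorticoid-response genes, Per1 and Errfi1 (-0.23 ± 0.075) were lower and the metallothionein gene Mt1 (0.38 ± 0.12) higher. Of 11 hypoxia-response genes, Vegfa (0.21 ± 0.058) and Bnip3 (0.22 ± 0.069) were higher and the stress gene Ddit4 (-0.32 ± 0.071) lower. The genes that lay apart in the MAPK, glucocorticoid and hypoxia lists thus went both ways. With the length trend described further on removed, 9.88% of all genes lay apart. Junb, Xbp1, Spry2, Mt1 and Bnip3 then overlapped, with differences of 0.13, 0.076, 0.13, 0.20 and 0.11. The MAPK and hypoxia lists then had 1 gene apart each way, and the glucocorticoid list 0 higher and 2 lower.

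Genes of sensory neurons that lay apart differed by small amounts, and their counts (3 of 12 peptidergic, 5 of 14 neuropeptide and opioid, 2 of 15 A-fibre, 1 of 7 low-threshold mechanoreceptor (C-LTMR), 6 of 30 ion channel and 4 of 16 broad neuronal genes) stand beside 15.0% of all genes. Of 12 peptidergic nociceptor genes, Calca and Calcb, which encode the calcitonin gene-related peptides, were higher in the high-number set by 0.34 ± 0.11 and 0.32 ± 0.094, and the adrenergic receptor gene Adra2a was lower (-0.37 ± 0.11). Calca was at 1108, 1026, 1055 and 1108 CPM in the low-number libraries and 1299, 1239.9, 1118 and 1776 CPM in the high-number libraries, and the highest value belonged to WT saline 4. Among 14 neuropeptide and opioid genes, Nmb was also higher (0.25 ± 0.081) and the opioid receptor genes Oprk1 and Oprd1 were lower (-0.30 ± 0.16 and -0.32 ± 0.087). None of 11 non-peptidergic nociceptor genes and none of 14 neurotrophin and GDNF receptor genes lay apart. In the list of 15 A-fibre and proprioceptor genes, the lineage factor Runx3 (-0.34 ± 0.10) and the scaffold gene Whrn (-0.29 ± 0.087) were lower in the high-number set. Of 30 sensory ion channel genes, 6 lay apart and all 6 were lower there, among them the mechanosensitive channel Piezo2 (-0.30 ± 0.10), the potassium channels Kcnk2 and Kcnd3 (-0.29 and -0.18) and the calcium channels Cacna1c and Cacna1h (-0.31 and -0.29). Piezo2 was at 615, 645, 679 and 703 CPM in the low-number libraries and 580.1, 587, 586 and 394 CPM in the high-number libraries. All 7 tested C-LTMR genes were lower in the high-number set, with a median of -0.14, and their score was lowest in WT saline 4 (5.59). Without WT saline 4 and WT CFA 3 the C-LTMR median was -0.024. With the length trend removed it was -0.14 and none lay apart. Of 16 broad neuronal genes, Syt1, Dlg2 and Csmd1 were lower (-0.19, -0.29 and -0.34) and Uchl1 higher (0.13). With the length trend described further on removed, none of the peptidergic and 1 of the neuropeptide genes lay apart, and Calca and Calcb differed by 0.15 and 0.12, Piezo2 by -0.084 and Cacna1c by -0.053, all 4 overlapping. None of 19 tested axon injury and regeneration genes lay apart, though their median was -0.23. Sprr1a, an injury-induced gene of regenerating neurons, was at 1.73, 7.85, 37.6 and 30.8 CPM in the low-number libraries and 0.463, 1.21, 1.17 and 2.90 CPM in the high-number libraries. It was high in the low-number CFA libraries and intermediate in WT saline 2. Atf3, the injury transcription factor, was at 7.53 to 32.4 CPM in the low-number set and 8.84 to 13.9 CPM in the high-number set, overlapping, with its 2 highest values in WT CFA 1 and 2.

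Glial, vascular and immune lists did not divide as whole lists, and their counts over the 8 libraries stand beside 15.0% of all genes that lay apart. Of 10 satellite glial genes, the lipid carrier Apoe was higher in the high-number set (0.34 ± 0.090) and the sterol synthesis enzyme Hmgcs1 lower (-0.24 ± 0.058). None of 12 Schwann cell and myelin genes lay apart, with a median of 0.13, and WT CFA 3 had the lowest mean log2 CPM over the list. Individual glial genes outside these lists were among the divided ones: Gjc3, a glial gap-junction connexin, at 20.6, 22.5, 27.4 and 26.0 CPM in the low-number libraries and 29.8, 43.8, 42.4 and 47.8 CPM in the high-number libraries (0.76 ± 0.13), Cdh19, a cadherin of Schwann cell lineage, at 49.0, 47.0, 47.6 and 50.5 CPM in the low-number libraries and 51.9, 75.0, 91.3 and 94.9 CPM in the high-number libraries (0.67 ± 0.12), and Art3, an ADP-ribosyltransferase family gene, higher by 0.63 ± 0.12. The Cdh19 sets nearly touched, at 50.5 and 51.9 CPM. None of 10 endothelial genes lay apart, with a median of 0.25, while the Ly6 family gene Ly6c1, found on endothelium and monocytes, was at 7.84, 8.04, 6.57 and 7.81 CPM in the low-number libraries and 10.5, 13.7, 14.4 and 21.6 CPM in the high-number libraries (0.98 ± 0.15) and the chemokine gene Cxcl12 was higher by 0.67 ± 0.11. Klf2, a flow-induced endothelial transcription factor chosen after its values were seen, was lower by 0.73 ± 0.11. Of 12 macrophage genes only the fractalkine receptor gene Cx3cr1 lay apart, at 2.72, 3.39, 3.43 and 4.08 CPM in the low-number libraries and 5.13, 4.92, 5.24 and 5.42 CPM in the high-number libraries (0.61 ± 0.15). No gene of the neutrophil, lymphocyte, mast cell, pericyte, fibroblast, interferon-stimulated (32 genes) or antigen presentation (16 genes) lists did. The interferon-stimulated score was highest in WT CFA 2, at 4.04 against 2.44 to 2.68 in the other low-number libraries. Leaving out WT saline 4 and WT CFA 3 set 6 of the 12 Schwann cell genes apart, all higher in the high-number set with a median of 0.24, where 30.6% of all genes lay apart.

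Genes of fat, cartilage and extracellular matrix gave some of the largest ratios, at low levels. Wild-type counts in this paragraph stand beside 15.0% of all genes that lay apart, or 30.6% without WT saline 4 and WT CFA 3. Plin4, a lipid-droplet coat gene of adipocytes, had a difference of 2.40 ± 0.39 and was at 0.389, 0.475, 0.476 and 0.691 CPM in the low-number libraries and 1.32, 2.19, 2.77 and 5.23 CPM in the high-number libraries. It was the 1 adipocyte gene of 4 tested that lay apart, and 2 of 4 did without WT saline 4 and WT CFA 3 (list median 1.54). In KI, 3 of 7 tested adipocyte genes lay apart, all higher in the high-number libraries (list median 1.47), beside 5.34% of all genes, and none was called. Adipoq and Cidec, further adipocyte markers, stayed at or below 0.345 and 0.444 CPM in wild type. Plin1 and Lep, defining markers of adipocytes, stayed at or below 0.254 and 0.113 CPM in wild type, and the adipocyte score ranged from -1.52 to 0.549 in the low-number and from -0.768 to 1.04 in the high-number set. Col2a1, the cartilage collagen, was lower in the high-number set (-0.86 ± 0.25), the only 1 of 5 bone and cartilage genes to lie apart. No skeletal muscle gene of 8 did, and their score reached 1.97 in WT saline 1 and 2.29 in WT saline 4 and stayed between -1.87 and -0.345 in the other 6 libraries. Thbs1, a matricellular thrombospondin, was at 14.7, 19.9, 5.46 and 9.19 CPM in the low-number libraries and 3.74, 4.87, 4.64 and 3.502 CPM in the high-number libraries (-1.43 ± 0.26), and Tnc, the matrix protein tenascin C, was lower by 0.90 ± 0.16. Of 11 fibroblast genes none lay apart, and of 15 collagens only Col14a1 did (-0.24 ± 0.090). Hoxc11, which marks caudal lumbar and sacral levels, was at 5.12, 5.76, 4.54 and 4.63 CPM in the low-number libraries and 2.14, 3.68, 4.16 and 4.07 CPM in the high-number libraries (-0.52 ± 0.17), and the other 11 lumbar Hox genes overlapped. With a skeletal muscle score as a covariate, 128 genes lay apart by at least 1.5-fold, 116 of them among the 121. The part of other carried-over tissue in any of these differences was not tested.

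Without WT saline 4 and WT CFA 3, where 30.6% of all genes lay apart in sets of 4 and 2 libraries, counts were higher in most lists. Of the lists with none apart before, 3 of 11 non-peptidergic, 1 of 14 neurotrophin receptor, 2 of 19 axon injury, 2 of 10 endothelial, 3 of 10 pericyte, 1 of 11 fibroblast and 2 of 9 neutrophil genes lay apart, and still none of the lymphocyte, mast cell, skeletal muscle, interferon-stimulated and antigen presentation genes. The count was 6 of 15 for immediate early genes (2 higher, 4 lower), 10 of 16 for broad neuronal genes (2 higher, 8 lower), 9 of 30 for ion channels (all lower) and 7 of 16 for heat-shock and folding genes (3 higher, 4 lower). It was 8 of 11 for hypoxia-response genes (3 higher, 5 lower), 6 of 12 for glucocorticoid-response genes (3 each way), 4 of 12 for MAPK feedback genes (3 higher, 1 lower), 6 of 14 for neuropeptide genes (3 each way), 5 of 10 for satellite glial genes (3 higher, 2 lower) and 4 of 15 for collagens (3 higher, 1 lower). Oxidative phosphorylation genes had 14 higher and 1 lower with a median of 0.11, and the 7 cholesterol genes of 16 stayed all lower.

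**Figure D3:**
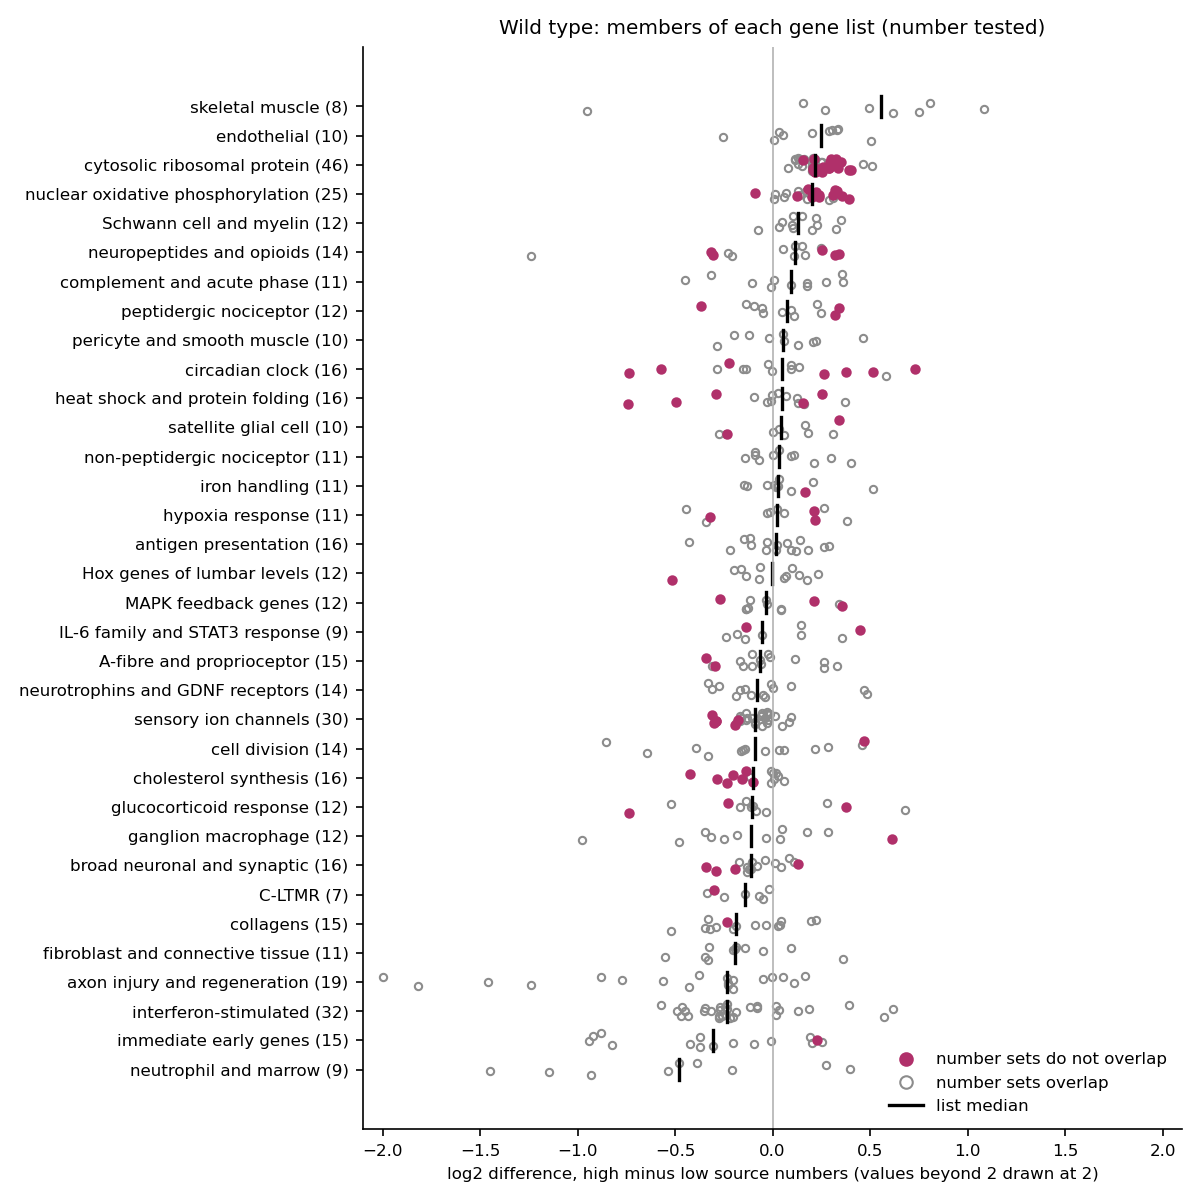
Log2 difference (high-number minus low-number) of each tested gene, 1 point per gene, for lists with at least 7 tested genes; filled points are genes whose number sets do not overlap, bars are list medians, and values beyond 2 are drawn at 2. Filled points of ribosomal protein (22) and cholesterol synthesis genes (7) lie on 1 side of 0, and those of clock genes on both.

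Ribosomal, oxidative phosphorylation and cholesterol synthesis genes lay apart almost entirely in 1 direction per list. Of 46 cytosolic ribosomal protein genes, 22 lay apart and all 22 were higher in the high-number set, with a list median of 0.22, where 15.0% of all genes lay apart and 6.88% were higher in that set. Without WT saline 4 and WT CFA 3, 31 were higher and 1 lower, with a median of 0.14, beside 30.6% of all genes. Rps23 was at 46.8, 46.5, 43.7 and 37.1 CPM in the low-number libraries and 49.1, 50.1, 58.2 and 73.9 CPM in the high-number libraries (0.40 ± 0.084), highest in WT saline 4. Rpl11 and Rplp1 were higher by 0.39 ± 0.090 and 0.35 ± 0.10. Of 25 nuclear genes of oxidative phosphorylation, 12 lay apart higher and Sdha lower (-0.091). Atp5e, an ATP synthase subunit, led them with 0.39 ± 0.10, followed by the cytochrome oxidase subunit Cox7c with 0.35 ± 0.11. None of the 13 mitochondrially encoded genes listed is in the table. Of 16 cholesterol synthesis genes, 7 lay apart and all were lower in the high-number set, including the cyclase Lss (-0.42 ± 0.090) and the synthase Hmgcs1 (-0.24 ± 0.058). Bc1, a short neuronal noncoding RNA, was at 4.03, 4.49, 4.51 and 4.80 CPM in the low-number libraries and 7.23, 5.30, 7.24 and 24.8 CPM in the high-number libraries (1.19 ± 0.36), and its level in WT saline 4 was far above the rest.

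Over the 14493 genes with an annotated length (95.1% of those tested), the wild-type difference and transcript length had a Spearman rho of -0.458, a description across genes that share libraries. In the decile of genes with the shortest transcripts the median difference was 0.173, 19.9% lay apart and higher in the high-number set, and 0.207% lay apart and lower. In the decile with the longest transcripts the median was -0.188, and the shares were 0.897% and 32.1%. The median length was 2184 bases among genes that lay apart and were higher in the high-number set and 5951 bases among those lower, against 3460 bases over all. GC content had a rho of -0.0581. Measured in each library as the median log2 deviation from the wild-type mean in the shortest minus that in the longest decile, the low-number libraries lay at -0.117, -0.102, -0.203 and -0.296 and the high-number libraries at 0.0422 for WT saline 3, 0.571 for WT saline 4, 0.0289 for WT CFA 3 and 0.0792 for WT CFA 4. The sets did not overlap, and WT saline 4 stood far above the other 3. Without WT saline 4 and WT CFA 3 rho was -0.350 and the medians were 0.112 and -0.132. In KI the relation had the opposite sign (rho 0.281, medians -0.0861 and 0.0805). RNA integrity values per library are not in the labels used here, and what sets the length trend was not tested.

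**Figure D4:**
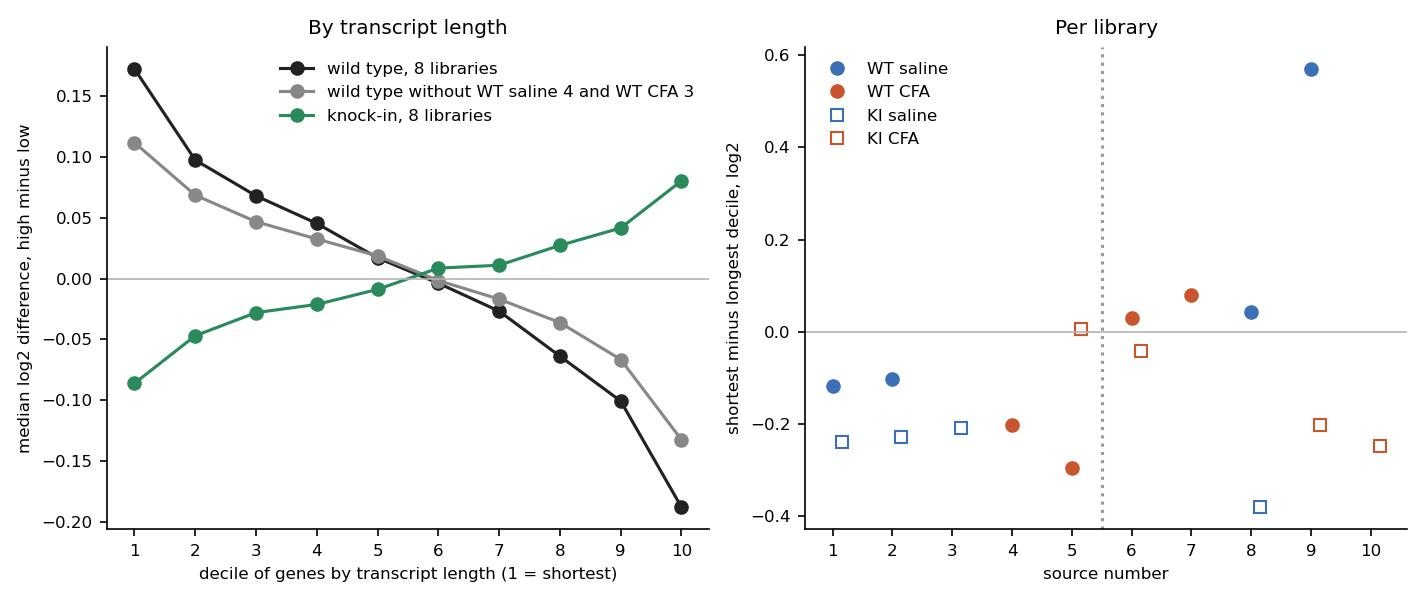
Left, median log2 difference (high-number minus low-number) in each decile of transcript length, for wild type, wild type without WT saline 4 and WT CFA 3, and KI; right, median log2 deviation of the shortest minus the longest decile in each library against its source number. The wild-type line falls from 0.173 to -0.188, the KI line goes from -0.0861 to 0.0805, and WT saline 4 stands highest of all libraries at 0.571.

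When a smooth trend on length was removed from each library, an alternative added after the trend was seen, 1506 genes (9.88%) lay apart and 107 did so by at least 1.5-fold, 85 of them among the original 121. Ribosomal protein genes that lay apart went from 22 to 6 (5 higher, 1 lower) and oxidative phosphorylation genes from 13 to 4 (3 higher, 1 lower), and ion channels from 6 to 2 (1 in each direction). Clock genes stayed at 7 (4 higher, 3 lower) and cholesterol genes went from 7 to 6. Of the named wild-type genes that lay apart, Il6st and Uchl1 changed sign, from -0.14 to 0.042 and from 0.13 to -0.028. With the trend removed, Ppp1r10 differed by -0.97, Rsrp1 by -0.79, Dbp by 0.63 and Per1 by -0.69, and all 4 still lay apart.

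The KI libraries were not used to find the division, so the same number boundary was tested in them with edgeR's quasi-likelihood test, with injection in the model. Numbers and injections are unbalanced in KI, since the low-number libraries are 3 saline and 1 CFA and the high-number libraries 1 saline and 3 CFA. Of 15739 genes, 28 (0.178%) passed an adjusted p of 0.05, 14 higher and 14 lower in the high-number libraries, and 1756 had an unadjusted p under 0.05. In addition 840 genes (5.34%) did not overlap between the KI sets. Among the called genes were a satellite glial fatty-acid carrier, a collagen chaperone, an immediate early gene, splicing factors and folding genes of the endoplasmic reticulum. Fabp7, the satellite glial fatty-acid binding protein, was at 159.9, 221, 159.9 and 196 CPM in the low-number KI libraries and 105, 87.1, 96.3 and 84.7 CPM in the high-number KI libraries, in the order KI saline 1, 2 and 3, KI CFA 1 and KI CFA 2, KI saline 4, KI CFA 3 and KI CFA 4. It fell by 1.05 ± 0.12 (log2; edgeR adjusted p = 0.0147), while its wild-type levels were 125 to 163 CPM in the low-number set and 96.9 to 145 CPM in the high-number set. Serpinh1, a collagen-specific chaperone of the heat-shock family, fell by 0.75 ± 0.088 (edgeR adjusted p = 0.0147), with 84.1 to 104 CPM in the low-number KI libraries and 48.7 to 60.3 CPM in the high-number KI libraries. Egr3, an activity-induced factor, was at 8.68, 9.62, 8.35 and 9.43 CPM in the low-number KI libraries and 2.104, 2.35, 4.11 and 3.26 CPM in the high-number KI libraries and fell by 1.73 ± 0.21 (edgeR adjusted p = 0.0147). Hspa5 and Xbp1, which act in folding and stress sensing of the endoplasmic reticulum, fell by 0.30 and 0.38 (edgeR adjusted p = 0.0389 and 0.0438). The hypoxia-responsive growth factor Vegfa rose by 0.42 (edgeR adjusted p = 0.0318), and the transporters Slc6a6 and Slc1a5 rose by 0.63 and 0.46 (edgeR adjusted p = 0.0147 and 0.0481).

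By list, 1 of 10 satellite glial genes (Fabp7), 1 of 15 immediate early genes (Egr3), 1 of 16 clock genes (Dbp), 2 of 16 heat-shock and folding genes (Hspa5 and Xbp1) and 1 of 12 hypoxia-response genes (Vegfa) were called in KI, and none of the 46 ribosomal protein, 25 oxidative phosphorylation, 30 ion channel or 12 Schwann cell genes was. Over 16 alternatives to the KI fit, Serpinh1 passed in 14, Fabp7 and Banp in 13, Egr3 and Rbm5 in 12, Srsf5 in 11 and Xbp1 and Slc1a5 in 6. The KI list counts read beside a background of 0.178%.

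Of the 121 wild-type genes, 119 were tested in KI, and 72 (60.5%) had the wild-type sign there, 39 of 58 higher and 33 of 61 lower in the high-number set. Over all genes tested in both genotypes the share was 38.7%, and over the 2277 genes that lay apart in wild type it was 28.2%. The genotypes also had length trends of opposite sign. With the length trend removed these shares were 60% of 105, 44.4% and 40.1%. Dbp was the only gene of the 121 that passed the KI test, at 9.70, 9.19, 10.4 and 11.8 CPM in the low-number KI libraries and 16.9, 18.3, 16.3 and 16.3 CPM in the high-number KI libraries. It rose by 0.69 ± 0.10 (edgeR adjusted p = 0.0343), next to 0.73 ± 0.10 in wild type. This call was lost when any of the 8 KI libraries was left out and with limma-voom, and its adjusted p ranged from 3.02e-05 to 0.810 over 16 alternatives. Among the wild-type genes that lay apart by any amount, Rbm5, Srsf5, Vegfa, Zfp941, Dbp and Sh3pxd2b were called in KI in the wild-type direction, and Syne1, Lpar1, Xbp1 and Herc1 against it. Rbm5 was at 74.4, 67.5, 70.6 and 74.8 CPM in the low-number KI libraries and 49.7, 49.6, 53.0 and 55.6 CPM in the high-number KI libraries and fell by 0.51 ± 0.059 (edgeR adjusted p = 0.0147). Srsf5 was at 85.7, 108, 95.9 and 94.8 CPM in the low-number KI libraries and 163, 147, 143 and 142 CPM in the high-number KI libraries and rose by 0.63 ± 0.080 (edgeR adjusted p = 0.0147), a larger difference than the 0.23 of wild type, though the 2 were not tested against each other.

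Ppp1r10 was at 39.5, 41.4, 47.6 and 45.4 CPM in the low-number KI libraries and 27.1, 29.0, 33.5 and 37.9 CPM in the high-number KI libraries. Its KI sets did not overlap, but the difference of -0.52 ± 0.11 missed the threshold (edgeR adjusted p = 0.143), and 6 of the 8 KI levels lay between the wild-type sets. Of the 121 genes, 119 were tested in KI, where 5.34% of all genes lay apart in either direction. In the wild-type direction 10 of the 119 lay apart in KI, namely Eda2r, Ppp1r10, Mfsd4b4, Cabcoco1, Pcf11, Fzd6, Dbp, Ch25h, Pnpla7 and Zfp867. In the opposite direction 3 did, namely Parpbp, Gm15545 and Gm16861. Of the clock genes, Per1 had KI levels of 26.4 to 31.2 CPM in the low-number KI libraries and 26.5 to 36.2 CPM in the high-number KI libraries and a KI difference of 0.15 ± 0.10 (edgeR adjusted p = 0.636), without the lower levels of the wild-type high-number set. Per3 and Nr1d1 had KI differences of 0.47 ± 0.15 and 0.41 ± 0.10 (edgeR adjusted p = 0.280 and 0.196). Arntl, which overlapped in wild type, was at 5.11 to 6.70 CPM in the low-number KI libraries and 2.58 to 3.54 CPM in the high-number KI libraries, a KI difference of -0.95 ± 0.17 that missed the threshold (edgeR adjusted p = 0.0697). Hspa1a and Hspa1b had KI differences of -1.07 ± 0.23 and -0.90 ± 0.25 (edgeR adjusted p = 0.143 and 0.220). Plin4 had a KI difference of 1.00 ± 0.46 (edgeR adjusted p = 0.456). The muscle gene Ckm was at 118 CPM in KI saline 1, 15.5 CPM in KI saline 3 and 90.5 CPM in KI saline 4, and its part in the KI differences was not tested. The KI count rested on single libraries: it was 0 without KI CFA 1, 4 without KI saline 4, 6 without KI saline 3, 11 without KI CFA 3, 17 without KI CFA 4 and 18 without KI saline 2, and it was 11 without KI saline 1 and KI saline 4 together. Without KI CFA 1, which is the only CFA library of the low-number set, 1192 genes had an unadjusted p under 0.05 by edgeR.

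**Figure D5:**
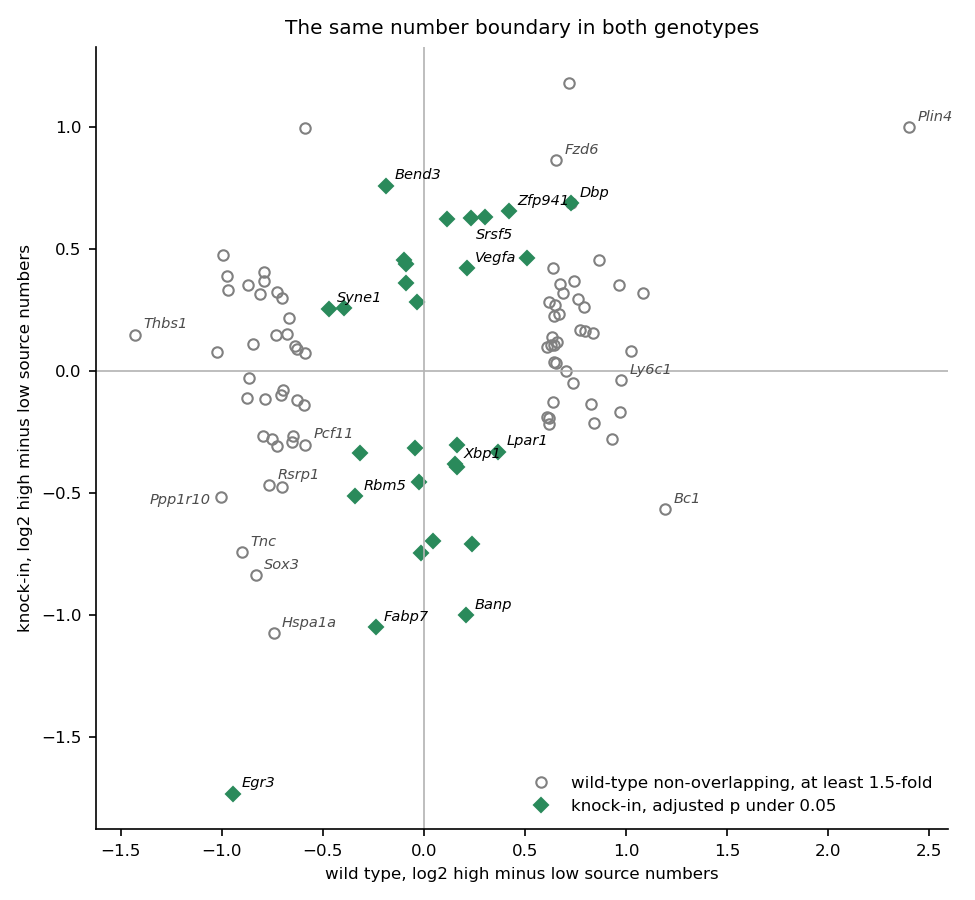
Log2 difference (high-number minus low-number) in KI against that in wild type, 1 point per gene, with open circles for wild-type genes that lay apart by at least 1.5-fold and averaged 1 CPM or more and filled diamonds for the 28 genes called in KI. Dbp, at 0.73 in wild type and 0.69 in KI, is the gene that carries both marks.

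The injection contrast in wild type is balanced over the division, and was tested with and without the division in the model. With edgeR, 0 of 15237 genes (0%) passed an adjusted p of 0.05 for CFA against saline when the number set was in the model, and 1333 had an unadjusted p under 0.05. Without the number set, 0 passed and 654 had an unadjusted p under 0.05. The biological coefficient of variation was 9.47% with the number set in the model and 11.6% without it. The division was found because it separates these libraries, so its term lowers the residual spread by that choice, and the 1333 and 654 genes are not compared further. DESeq2 called 35 genes with the number set in the model. The genes with the smallest p included Pappa, a growth-factor-binding protease (0.91 ± 0.14 for CFA minus saline), Tfrc, the transferrin receptor (0.40 ± 0.063), Dcn, the matrix proteoglycan decorin (-0.66 ± 0.11), and the transcription factor Jun (0.37 ± 0.065). The edgeR adjusted p of Pappa, Tfrc and Dcn was 0.190 and that of Jun 0.276. Tfrc was at 100.1, 97.9, 116 and 137 CPM in the low-number libraries and 142, 158, 112 and 108 CPM in the high-number libraries. All 4 CFA libraries lay above all 4 saline libraries in Tfrc, in both number sets. Without WT saline 4 the count was 7, without WT saline 2 or without WT CFA 4 it was 1 each, and without WT saline 4 and WT CFA 3 together it was 40.

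Whether the CFA difference itself differed between the number sets was tested as an interaction, in the libraries where the division was found, so that its p-values rest on a residual spread that this choice lowers. With edgeR, 0 of 15535 genes (0%) passed and 591 had an unadjusted p under 0.05, and DESeq2 called 5. The smallest p belonged to Rn45s, the ribosomal RNA precursor, and Mir6240, whose entry lies in ribosomal RNA sequence (edgeR adjusted p = 0.221 for both). Rn45s was at 1421, 1552, 1586 and 1441 CPM in the low-number libraries and 1563, 1131, 2915 and 3151 CPM in the high-number libraries, highest in WT saline 3 and 4. Cckbr, a cholecystokinin receptor induced in injured sensory neurons, was at 0.389, 1.27, 5.65 and 5.32 CPM in the low-number libraries and 0.392, 0.230, 0.563 and 1.66 CPM in the high-number libraries (edgeR adjusted p = 0.585). Its levels were high in WT CFA 1 and 2 and at or below 1.66 CPM in the other 6. Sprr1a, with the values given above, had an edgeR adjusted p of 0.988, and Egr1 one of 0.895. Without WT saline 3 the interaction count was 241, and without WT CFA 1 or without WT CFA 3 it was 1 each, with 3 genes called when WT saline 4 and WT CFA 3 were both left out.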

How the data were processed

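RNA from pooled lumbar ganglia was sequenced as single-end 50-nt reads from poly-A libraries made with 150 ng of RNA and 15 PCR cycles, on 3 lanes that held 20 libraries, per the labels' protocols; the lane of each library is not given. The authors deposited unnormalized counts for each gene. Per the submitters' processing notes the tools included HTSeq 0.6.1p1, TopHat2 2.1.1, SAMtools 1.5, bcl2fastq 2.20, Bowtie2 2.3.5.1 and FastQC, and the build was mm10. Entries without an identifier (28, holding 0.192% of counts) stayed in the counts and fits and could be given no transcript length. Counts of 22742209 to 40910947 per library were normalized with TMM over all 16 libraries for the CPM shown. Differences and tests came from edgeR 4.0.16 in R 4.3.3 (quasi-likelihood, filterByExpr, Benjamini-Hochberg adjustment over all genes tested, threshold 0.05), fitted on the 8 libraries of 1 genotype. A gene lay apart when its 4 low-number and 4 high-number CPM values did not overlap. A list score is the mean log2 CPM over a list with a prior count of 2. Transcript length came from the longest annotated transcript of the gene.

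The division, its members and the gene lists were chosen with earlier results of these data known. Named genes were those set by the design, the 20 largest differences each way that lay apart and averaged 1 CPM or more, at most 5 per list that lay apart, the 10 largest changes each way per test or the 10 smallest p, and the 10 tightest divided genes averaging 10 CPM or more. Tightest means the largest difference relative to the pooled SD within number set and injection, among 14 such genes. A gene so picked can still be widely spread within a number set. Some further genes, among them Clk1, Clk4, Klf2 and Rbm48, meet none of these rules and were picked after their values were seen. Alternatives were RLE size factors, no low-count filter, limma-voom (limma 3.58.1), DESeq2 1.42.0, each library left out, either injection alone, a muscle score as covariate, the title number as block, models without injection or number set, and, added after seeing the data, removal of the length trend and of pairs of libraries. The method was tested on simulated data.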

Additional observations from a re-analysis of the deposited data

Results flagged for a closer look

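Within each number set of each genotype, 228 groups of 4 values (list scores, the 10 tightest divided genes and the genes set by the design) were looked at for a library set off from the other 3, and 18 had one, against about 1 in 20 by chance. Groups mix both injections.

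Among wild-type libraries, WT saline 4 had the highest ribosomal protein score (mean log2 CPM, 7.12 against 6.69 to 6.76 in the other high-number libraries) and oxidative phosphorylation score (7.30 against 6.98 to 6.99). Its axon injury score was 3.88 against 3.22 to 3.32, and its sensory ion channel score 6.71 against 6.95 to 6.97. WT CFA 3 was low in pericyte and smooth muscle genes (2.27 against 3.00 to 3.14) and adipocyte genes (-0.768 against 0.783 to 1.04) and high in MAPK feedback genes (4.33 against 4.27 to 4.28). WT saline 3 had a mast cell score of 0.0124 against -1.07 to -0.907. In the low-number set, WT saline 1 had a skeletal muscle score of 1.97 against -1.67 to -1.37, and WT CFA 2 an interferon-stimulated score of 4.04 against 2.44 to 2.68. Ly6c1 was at 6.57 CPM in WT CFA 1 against 7.81 to 8.04 CPM.

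Among KI libraries, KI saline 2 had a peptidergic nociceptor score of 5.44 against 5.64 to 5.66, and KI saline 1 a bone and cartilage score of 0.939 against 1.51 to 1.56. KI CFA 4 had an endothelial score of 3.73 against 4.07 to 4.11, and KI CFA 3 a cell division score of 1.28 against 0.0701 to 0.226. Ly6c1 was at 9.02 CPM in KI saline 1 against 10.9 to 11.2 CPM. Pcf11 was at 15.6 CPM in KI CFA 2 against 19.2 to 19.4 CPM, and Cxcl12 at 36.2 CPM in KI CFA 4 against 47.7 to 49.4 CPM.

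The named genes, the 121 wild-type genes and the 28 genes called in KI were searched for opposite directions between genotypes. For 6 of them the number sets lay apart in both genotypes but in opposite directions (log2, high-number minus low-number). Such genes were not counted over all genes tested, so no background share stands beside the 6. Rplp1, a ribosomal stalk protein gene, differed by 0.349 in wild type and -0.18 in KI. Xbp1 differed by 0.155 in wild type and -0.382 in KI, and the lysophosphatidic acid receptor gene Lpar1 by 0.367 and -0.33. Parpbp, a DNA repair gene at low levels, differed by -1.1 in wild type and 0.951 in KI. Gm15545 and Gm16861, entries at low levels, differed by -1.02 and 1.22 in wild type and by 1.27 and -1.04 in KI. The difference between genotypes was not tested for any of them.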

How the results depend on the processing

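The count of 121 wild-type genes that lay apart by at least 1.5-fold was 197 without the low-count filter, 337 without WT saline 4 and WT CFA 3, 817 in the saline libraries alone and 659 in the CFA libraries alone, and 180 to 273 with 1 library left out, where fewer libraries make non-overlap easier. RLE size factors, limma-voom, the muscle covariate and removal of the length trend kept it within 1.5 times. Of the named wild-type differences, 1646 values under alternatives stayed within the spread between libraries. Another 96 moved further or, in genes whose sets overlapped, changed sign. Ntrk3, for example, went from -0.31 to 0.018 with the length trend removed. In genes that lay apart, 2 values changed sign (Il6st 0.042 and Uchl1 -0.028, both with the length trend removed). The list medians moved in 44 cases of 640. The KI count of 28 was 44 without the low-count filter, 15 with limma-voom, 171 with DESeq2, 11 without KI saline 1 and KI saline 4, and 0 to 29 with 1 library left out. The wild-type injection count of 0 was 127 without the filter, 35 with DESeq2, 40 without WT saline 4 and WT CFA 3, and 0 to 7 with 1 library left out. The interaction count of 0 was 127 without the filter, 5 with DESeq2, 3 without WT saline 4 and WT CFA 3, and 0 to 241 with 1 library left out. The cause of the other changes was not tested.

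No paired analysis was possible because, for the wild-type division, the title numbers 1 and 2 all lie in the low-number set and 3 and 4 in the high-number set. The title numbers showed no pairing (correlations of same-numbered deviations of -0.0092, 0.145, -0.033 and 0.134 in wild type and -0.046, -0.065, 0.0133 and -0.0473 in KI). With the title number as a block, 8 genes were called in KI, 0 of them among the 28, and 4 in the wild-type injection contrast, and 0 in the interaction.

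Depth of at least 22742209 counts leaves genes under 1 CPM, 43 of the 121, the least precise.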
